A study of Mus musculus with 2 samples.

Results

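The genes described are 43 genes of bone morphogenetic protein (BMP) and transforming growth factor beta (TGF-beta) signalling, chosen by symbol from a fixed list and looked up in the authors' deposited table of genes near Ring1b intervals. Of these 43 genes, 15 were listed in the table and are called bound here, and 28 were not listed. The table assigns intervals up to 10 kb from a gene. Ring1b, the ubiquitin ligase subunit of Polycomb repressive complex 1, was localised by ChIP-seq (sequencing of DNA co-precipitated with the protein) in dental pulp cells from the incisors of CD1 mice at postnatal day 5. The animals had received 1 dose of the thymidine analogue EdU, 3.3 µg per g of body weight, 24 h before tissue was taken, and only EdU-positive cells were sorted, so every cell used had been labelled during DNA synthesis. The labels give 1 ChIP sample and 1 input sample from the same kind of tissue, with no genotype, allele or second treatment named, and how many animals or cells were pooled is not stated there.

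The deposited tables name a replicate 1 and a replicate 2 of the ChIP, which are counted here as 2 runs of 1 sample because the labels give 1 ChIP sample. No SD or p-value is therefore given, and the main counts are set beside the same count over 21887 protein-coding genes. There were 465 run 1 intervals, the tallest of height 9, and 3938 run 2 intervals, the tallest of height 66. Heights are the authors' own signal values at the summit, in whole numbers whose scaling is not stated. The tables hold no input values, sequencing depth is unknown, and no expression was measured. In a pool of sorted cells, binding in few cells and weaker binding in many cannot be told apart.

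BMP and TGF-beta ligands are secreted dimers that bring together type I and type II receptor kinases at the cell surface. The type I receptor then phosphorylates receptor Smads, Smad1, Smad5 and Smad9 in the BMP branch and Smad2 and Smad3 in the TGF-beta and activin branch, which enter the nucleus with their common partner Smad4. Smad6 and Smad7 feed back on the receptors, Id genes are direct BMP targets, and secreted antagonists such as noggin and follistatin hold ligands away from their receptors. In developing teeth these signals pass between epithelium and mesenchyme and direct odontoblast differentiation.

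Ring1b intervals were assigned to 15 of the 43 genes (34.9%), against 15.8% of all protein-coding genes (3461 of 21887). The 43 genes were chosen with earlier results of these data known, so this difference is a description and not a test. The intracellular Smads made up the largest group of bound genes, with 6 of 8 (75.0%). Receptors had intervals at 3 of 10 (30.0%), Id genes at 2 of 4 (50%) and antagonists at 1 of 4 (25.0%). Ligands had intervals at 3 of 17 (17.6%), close to the share of all protein-coding genes. With 4 to 17 genes in a role these shares are coarse, and no difference between roles was tested.

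Nearly all of the bound genes had a Ring1b interval called at the start, though no start was called in both runs. An interval lay within 2.5 kb of the gene start at 14 of the 43 genes (32.6%), against 10.4% of protein-coding genes, and Id1 was the bound gene without one. For the same 14 genes the interval was also within a window of 1 kb, as for 9.72% of protein-coding genes. As a share of bound genes, 93.3% had an interval at the start, against 65.7% of bound protein-coding genes.

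**Figure D1:**
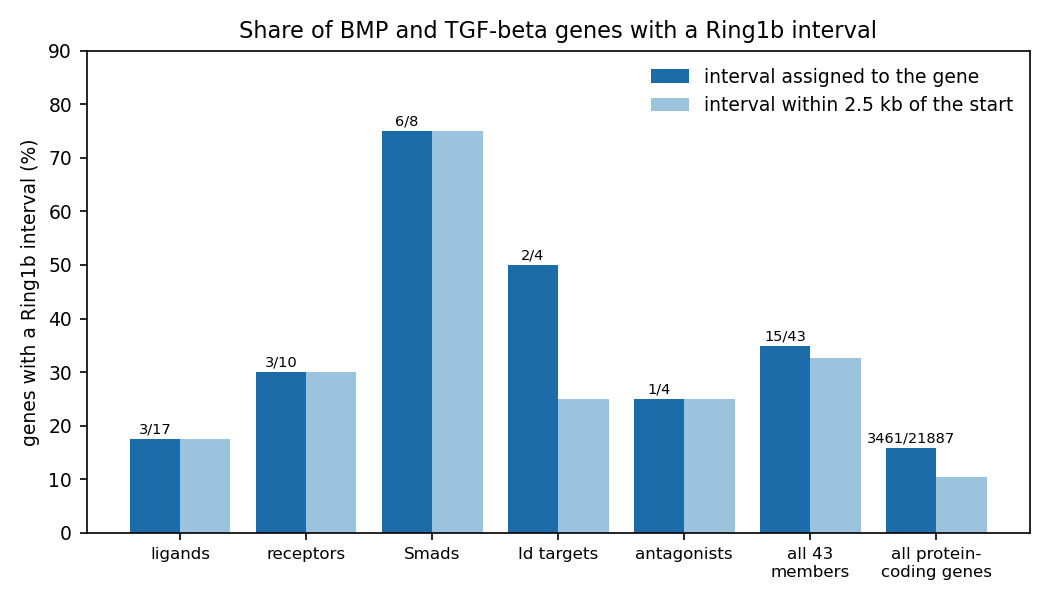
Share of genes in percent with any assigned Ring1b interval (dark bars) and with an interval within 2.5 kb of the gene start (light bars), for the 5 roles, for all 43 genes and for all protein-coding genes; the fractions above the dark bars are genes with an interval over genes in the group. Smads stand highest at 75.0%, and ligands at 17.6% lie near the 15.8% of all protein-coding genes.

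The upstream sequence of the bound starts shows the base composition over or beside which these intervals lay. The lines below give the 250 bases before the RefSeq gene start (GRCm38.p6, the assembly behind mm10), 5′ to 3′ on the gene's strand, with CpG dinucleotides in capitals. The RefSeq start can differ from the deposited gene start, from which all interval distances were taken. At Bmpr2 the printed stretch ends at 59764278, upstream of the deposited start at 59764637. At Smad1 it reaches past the deposited start at 79399468 into the gene. The genes are those with an interval at the start, up to 2 per role by height, where the RefSeq table has an entry, and Bmp4, the first unbound ligand with an entry, is set beside them for contrast.
Tgfb2, chr1:186705990-186706239, minus strand: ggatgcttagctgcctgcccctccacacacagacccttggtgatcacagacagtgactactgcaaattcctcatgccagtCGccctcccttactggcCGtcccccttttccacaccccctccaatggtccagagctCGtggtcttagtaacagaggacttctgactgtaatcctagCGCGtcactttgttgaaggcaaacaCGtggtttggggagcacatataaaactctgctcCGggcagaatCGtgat
Tgfb1, chr7:25686752-25687001, plus strand: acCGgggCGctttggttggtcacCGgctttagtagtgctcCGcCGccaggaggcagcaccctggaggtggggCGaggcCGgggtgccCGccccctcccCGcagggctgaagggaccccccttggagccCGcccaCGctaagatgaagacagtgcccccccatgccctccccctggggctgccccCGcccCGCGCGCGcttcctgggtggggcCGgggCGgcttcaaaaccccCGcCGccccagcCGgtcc
Tgfbr2, chr9:116175364-116175613, minus strand: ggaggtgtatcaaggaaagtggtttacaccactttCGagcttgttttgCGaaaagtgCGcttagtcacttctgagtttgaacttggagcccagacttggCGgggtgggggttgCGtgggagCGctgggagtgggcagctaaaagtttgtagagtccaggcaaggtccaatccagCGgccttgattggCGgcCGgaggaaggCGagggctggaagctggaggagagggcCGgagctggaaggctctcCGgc
Bmpr2, chr1:59764029-59764278, plus strand: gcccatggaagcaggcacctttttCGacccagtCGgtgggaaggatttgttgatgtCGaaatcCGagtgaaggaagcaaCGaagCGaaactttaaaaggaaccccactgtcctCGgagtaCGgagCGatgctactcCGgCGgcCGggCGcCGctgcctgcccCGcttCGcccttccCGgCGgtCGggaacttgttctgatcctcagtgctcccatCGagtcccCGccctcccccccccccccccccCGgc
Smad3, chr9:63757995-63758244, minus strand: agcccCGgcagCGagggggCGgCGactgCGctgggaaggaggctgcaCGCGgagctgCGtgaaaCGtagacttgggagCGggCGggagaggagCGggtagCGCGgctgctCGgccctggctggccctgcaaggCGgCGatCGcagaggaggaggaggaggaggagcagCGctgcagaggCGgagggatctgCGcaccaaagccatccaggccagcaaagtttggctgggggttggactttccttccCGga
Smad1, chr8:79399429-79399678, minus strand: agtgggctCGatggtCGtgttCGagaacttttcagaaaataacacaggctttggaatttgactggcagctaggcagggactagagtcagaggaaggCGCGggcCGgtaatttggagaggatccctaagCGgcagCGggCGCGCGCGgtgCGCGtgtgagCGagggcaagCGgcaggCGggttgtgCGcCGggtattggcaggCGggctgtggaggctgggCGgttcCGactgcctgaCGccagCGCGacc
Id3, chr4:136143572-136143821, plus strand: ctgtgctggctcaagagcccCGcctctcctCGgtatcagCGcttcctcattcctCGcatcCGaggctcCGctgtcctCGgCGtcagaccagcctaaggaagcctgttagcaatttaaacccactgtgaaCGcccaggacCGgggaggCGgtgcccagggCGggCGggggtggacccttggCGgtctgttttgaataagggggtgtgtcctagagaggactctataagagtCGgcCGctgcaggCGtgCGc
Bmp4, chr14:46390670-46390919, minus strand: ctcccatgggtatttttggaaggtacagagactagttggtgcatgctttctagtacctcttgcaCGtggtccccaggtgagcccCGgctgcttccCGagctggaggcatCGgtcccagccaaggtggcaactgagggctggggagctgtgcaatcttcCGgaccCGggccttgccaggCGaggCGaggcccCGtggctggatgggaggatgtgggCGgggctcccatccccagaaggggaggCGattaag

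These stretches held from 8 CpG dinucleotides at Tgfb2 to 25 at Smad1 among the bound genes, and 11 at unbound Bmp4. The whole printed stretch of Id3 and of Tgfb1 lay inside a Ring1b interval, as did 215 of the 250 bases at Smad1, 176 at Bmpr2, 96 at Smad3 and 60 at Tgfbr2. At Tgfb2 no base did, because its interval lay inside the gene. The ratio of observed to expected CpG was 1.08 at Smad1, 0.879 at Bmpr2, 0.794 at Smad3, 0.732 at Id3, 0.638 at Tgfbr2, 0.600 at Tgfb1 and 0.460 at Tgfb2, against 0.451 at unbound Bmp4. Bmp4 does not stand for the unbound genes. In the full RefSeq windows of 250 bases before to 50 after the start, the ratio ran from 0.458 at Tgfb2 to 1.06 at Smad1 over 9 bound genes and from 0.284 at Bmp5 to 1.14 at Acvr2a over 21 unbound genes, so the ranges overlapped. Across the list a comparison of CpG content between bound and unbound genes is void, because 30 of the 43 genes (69.8%) had a promoter entry, fewer than the 80% required.

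Letters of known factor motifs were searched on both strands in RefSeq windows from 250 bases before to 50 after the start. GTCTAGAC, the palindrome to which Smad3 and Smad4 bind, was found at Smad6 and in no other of the 30 windows, and 37 of 17492 protein-coding promoters (0.212%) hold it. GGCGCC, a GC-rich element bound by BMP-branch Smads, was found at bound Bmpr2 and Smad5 and at 8 unbound genes, Acvr1b, Bmpr1a, Chrd, Grem1, Id2, Id4, Smad9 and Tgfbr1, against 15.4% of all promoters. CCAAT was found at 5 of 9 bound and 8 of 21 unbound genes, against 39.0% of all promoters. For all of these motifs a comparison between bound and unbound genes is void, as for CpG content. Only 69.8% of the listed genes had a promoter entry, fewer than the 80% required, and some bound genes had no window. GGCGCC contains a CpG and so counts toward the CpG number. These matches describe letters in a window and are not binding sites.

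Among ligands, Ring1b lay at Tgfb2, Tgfb1 and Bmp7. Tgfb2, which encodes a TGF-beta ligand of heart, palate and neural crest development, had 1 interval of height 7, 359 bp wide, on chromosome 1 at 186705202 to 186705560. Its summit lay 600 bp inside the gene. Run 1 gave a height of 0 there, against 7 in run 2.

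Tgfb1, the founding ligand of the family, had 3 run 2 intervals, of height 4 across the start, height 3 at 4118 bp and height 4 at 24534 bp from the start, past the end of the gene. The interval at the start lay on chromosome 7 at 25686556 to 25687326, with its summit 250 bp upstream. Tgfb1 was also the sole bound gene whose intervals were all shared with neighbours. The first 2 were also assigned to B9d2, a ciliary transition zone gene, and the last to Ccdc97 and Hnrnpul1. The mean height over these 3 regions was 1 in run 1 and 3.667 in run 2.

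Bmp7, a BMP of kidney, eye and tooth development, had 1 interval of height 4 and 800 bp on chromosome 2 at 172939500 to 172940299, which began at the start and ran into the gene. It was the sole BMP among 8 with an interval. Bmp2, Bmp3, Bmp4, Bmp5, Bmp6, Bmp8a and Bmp8b had none. Of the other ligands, Gdf5, Gdf6, Gdf7 and Gdf11, which pattern joints, skeleton and neural tube, had none, and neither had Tgfb3 or the activin subunit genes Inhba and Inhbb. By subgroup, intervals were thus assigned to 1 of 8 BMP, 2 of 3 TGF-beta, 0 of 4 GDF and 0 of 2 activin subunit genes. With 15.8% of protein-coding genes bound and so few genes in a subgroup, no contrast between ligand subgroups is read from these counts. Bmp8a and Bmp8b are close paralogues 187 kb apart on chromosome 4, and close paralogues can share reads. How such reads were treated is not stated, and their part in the lack of an interval was not tested.

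Among the 10 receptor genes, Ring1b lay at Tgfbr2, Tgfbr3 and Bmpr2. Tgfbr2, the type II receptor for TGF-beta, had 1 interval of height 6 and 389 bp on chromosome 9 at 116175035 to 116175423, across the start. Tgfbr3, which encodes the co-receptor betaglycan that presents TGF-beta to Tgfbr2, had 1 of height 5 and 858 bp on chromosome 5 at 107289313 to 107290170, its summit 91 bp from the start. Run 1 heights were 0 at both genes, against 6 and 5 in run 2.

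Bmpr2, the type II receptor for BMPs, had 2 low intervals upstream of the start, of height 3 with its summit 1901 bp away and height 2 with its summit 829 bp away. They lay on chromosome 1 at 59762425 to 59762921 and at 59763489 to 59764204. Both were run 2 intervals, and Bmpr2 was the bound gene in which the runs came closest without a run 1 call, with mean heights of 2 in run 1 and 2.5 in run 2. None of the 5 type I receptor genes, Bmpr1a, Bmpr1b, Acvr1, Acvr1b and Tgfbr1, had an interval, and neither had the type II activin receptor genes Acvr2a and Acvr2b. The split of receptors and Smads by type was made after their values were seen, and with 15.8% of protein-coding genes bound, 0 of 5 is no result about type I receptors.

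Among Smads, both TGF-beta-branch receptor Smad genes, both inhibitory Smad genes and 2 of 3 BMP-branch receptor Smad genes had an interval, all of them from run 2 and each gene with at least 1 interval within 1 kb of its start. Smad3, which transduces TGF-beta and activin signals, had the widest interval of the 43 genes, of height 7 and 1078 bp, on chromosome 9 at 63757013 to 63758090. It spanned the start, with its summit 762 bp inside the gene. Smad2, which acts in the same branch, had an interval of about the same width, 972 bp, across the start on chromosome 18 at 76241024 to 76241995, but of height 3.

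Smad7, the inhibitory Smad that blocks TGF-beta and BMP receptors, had 1 interval of height 7 and 795 bp on chromosome 18 at 75366307 to 75367101. It ended 264 bp upstream of the start. Smad6, the inhibitory Smad of the BMP branch, had an interval of height 4 upstream of the start, on chromosome 9 at 64022592 to 64023174, and 1 of height 3 inside the gene, at 64019994 to 64020669. Smad6 and Smad3 lie 195 kb apart on chromosome 9, and Smad2 and Smad7 845 kb apart on chromosome 18, and no interval was assigned to both genes of a pair.

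In the BMP branch, Smad1 had 1 interval of height 6 and 474 bp across the start, on chromosome 8 at 79399170 to 79399643, and Smad5 had 1 of height 5 and 310 bp, on chromosome 13 at 56702789 to 56703098. Their summits lay 60 bp inside and 82 bp upstream of the start, the closest of the 15 bound genes, and the Smad5 interval was the narrowest of the 21. Smad9 had no interval, and neither had Smad4, the partner common to both branches. The nearest region lay 980 kb from Smad9 and 60.6 kb from Smad4. Run 1 heights at the bound Smads were 0 for Smad2 and Smad5, 1 for Smad1 and Smad6, and 2 for Smad3 and Smad7, against run 2 mean heights of 3 to 7.

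Id genes encode helix-loop-helix proteins without a DNA-binding domain, which hold basic helix-loop-helix factors inactive. Id3 was the sole gene of the 43 with an interval in run 1. That interval, of height 5 and 704 bp, lay on chromosome 4 at 136143123 to 136143826 and reached just past the start, with its summit 366 bp upstream. A run 2 interval of height 6 and 897 bp lay farther upstream at 136134652 to 136135548, with its summit 8798 bp from the start. The runs thus called different places at Id3, while mean heights over the 2 regions were 5 in run 1 and 4.5 in run 2. Run 2 had no interval at the Id3 start.

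Id1 had 1 interval of height 4 and 639 bp on chromosome 2 at 152739366 to 152740004, past the end of the gene and 3092 bp from its start at the nearest edge. It was assigned to no other gene. Run 1 gave a height of 0 there. Id2 and Id4 had no interval, with the nearest region 262 kb and 32.9 kb away.

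Among antagonists, Fst, which encodes the activin-binding protein follistatin, had 2 run 2 intervals of height 3, across the start on chromosome 13 at 114458641 to 114459310 and inside the gene at 114456889 to 114457564. Their mean height was 3 in run 2 and 1 in run 1. Nog, Chrd and Grem1, which encode noggin, chordin and gremlin and bind BMPs, had none.

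**Figure D2:**
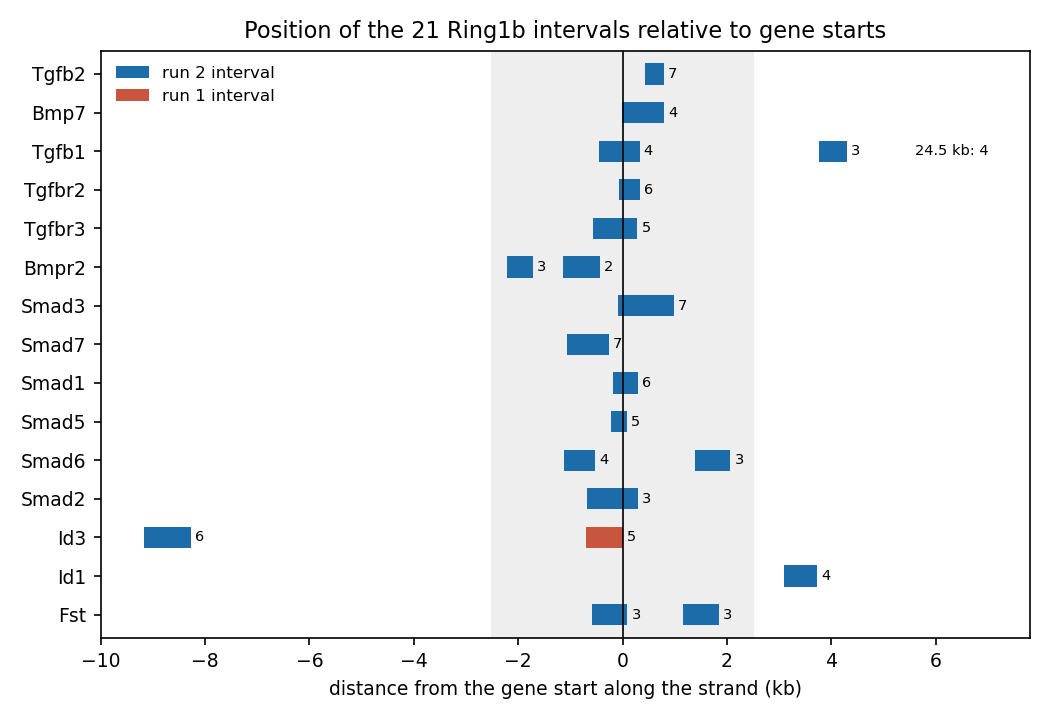
Position in kb, along the gene's strand, of the 21 Ring1b intervals of the 15 bound genes relative to the gene start at 0; numbers are heights, colours give the run, and the shaded band is 2.5 kb on either side. At 14 of 15 genes an interval lies in the band; the exceptions outside it are the Id1 interval, the run 2 interval of Id3 and 2 intervals of Tgfb1, of which that at 24534 bp is given as text.

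Of the 21 intervals, 10 lay upstream, 9 in the gene and 2 downstream, in the authors' terms. This split was not computed over all intervals and stands without a comparison. The widths of the 21 intervals ran from 310 to 1078 bp with a median of 676 bp, against 670 bp over all 4403 intervals. The nearest summit lay within 1 kb of the start at 14 of 15 bound genes (93.3%), against 58.3% of bound protein-coding genes, and at a median of 390 bp against 566 bp. At 5 of 15 genes more than 1 interval was assigned (33.3%), against 19.8% of bound protein-coding genes. At 14 of the 43 genes an interval was assigned to no other gene, against 7.64% of protein-coding genes. As a share of bound genes this is 93.3%, against 48.3% of bound protein-coding genes.

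Heights were low to moderate and did not reach those of the highest regions. The highest interval per gene had a height of 3 to 7 with a median of 5. Over bound protein-coding genes the median was 4, the minimum 2 and the maximum 66. Counting only intervals within 2.5 kb of a start, the median was 5 for these genes and 5 for protein-coding genes. With run 2 alone it was likewise 5 for both. Tgfb2, Smad3 and Smad7 had a height of 7, Tgfbr2, Smad1 and Id3 had 6, and Tgfbr3 and Smad5 had 5. Bmp7, Tgfb1, Smad6 and Id1 had 4, and Bmpr2, Smad2 and Fst had 3. A height of 3 is near the floor, since 99.5% of bound protein-coding genes had 3 or more. An interval of height 5 or more was assigned to 8 of the 43 genes (18.6%), against 7.90% of protein-coding genes, and of height 6 or more to 6 (14.0%), against 4.25%. As a share of bound genes, 53.3% reached 5, against 49.9% of bound protein-coding genes, and 40% reached 6, against 26.9%. None of the 15 reached a height of 8, which 9.59% of bound protein-coding genes did.

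Run 2 had an interval at all 15 bound genes (14.8% of protein-coding genes had one), and run 1 at 1 of the 43 genes (2.33%, against 1.73% of protein-coding genes). Of the 21 intervals 20 came from run 2, and 10.6% of all 4403 intervals came from run 1. The table also gives run 1 heights where run 1 had no interval. At the 14 bound genes without a run 1 interval these were 0 at 6 genes, 1 at 4 and 2 at 4. These 14 genes are listed through run 2 alone, which by itself sets run 2 above run 1, so nothing is read from that order. Of the 14 genes 42.9% had a run 1 height of 0, against 52.7% of 3083 protein-coding genes without a run 1 interval. Over those protein-coding genes run 1 heights reached 19, above the tallest run 1 interval of 9, so a gene without a run 1 interval can still have a high run 1 signal. Apart from the Id3 interval at the start, which came from run 1, the counts above rest on run 2.

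**Figure D3:**
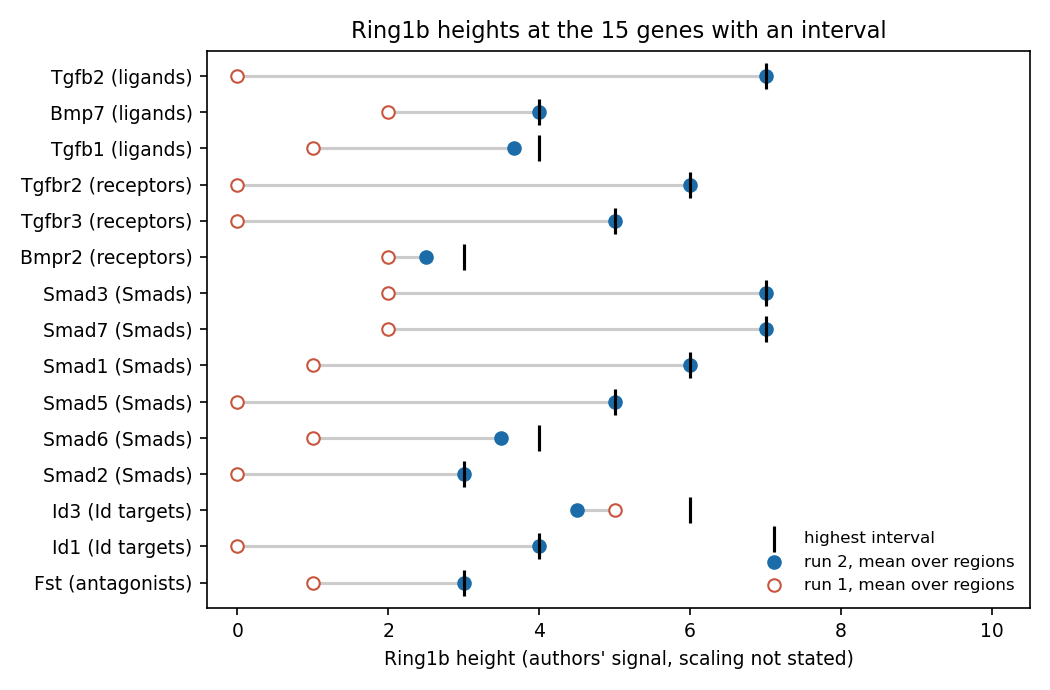
Ring1b height (the authors' signal, scaling not stated) at the 15 bound genes, by role: open circles are the run 1 mean over the gene's regions, filled circles the run 2 mean, and black ticks the highest interval. Run 1 means lie between 0 and 2 at the 14 genes listed through run 2 alone, a choice that sets the order of the runs; at Id3, listed through both, run 1 has 5 and run 2 has 4.5.

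The 28 genes without an interval lay about as far from a Ring1b region as other unbound genes. The nearest merged region lay more than 100 kb away for 20 of them (71.4%), against 70.5% of unbound protein-coding genes, and at a median of 214 kb, against 221 kb. Chrd was closest to the authors' limit of 10 kb, with a region 13.1 kb away. Bmp2 followed at 28.2 kb, Acvr1b at 32.7 kb, Id4 at 32.9 kb and Bmp6 at 39.5 kb. Among bound genes whose RefSeq body no region touched, the gap was 1.96 kb at Id1, 0.264 kb at Smad7 and 0.075 kb at Bmpr2, so none of the 43 genes lay just inside the limit by its nearest region. Grem1 was farthest, at 2090 kb, and Gdf6 next, at 1150 kb.

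**Figure D4:**
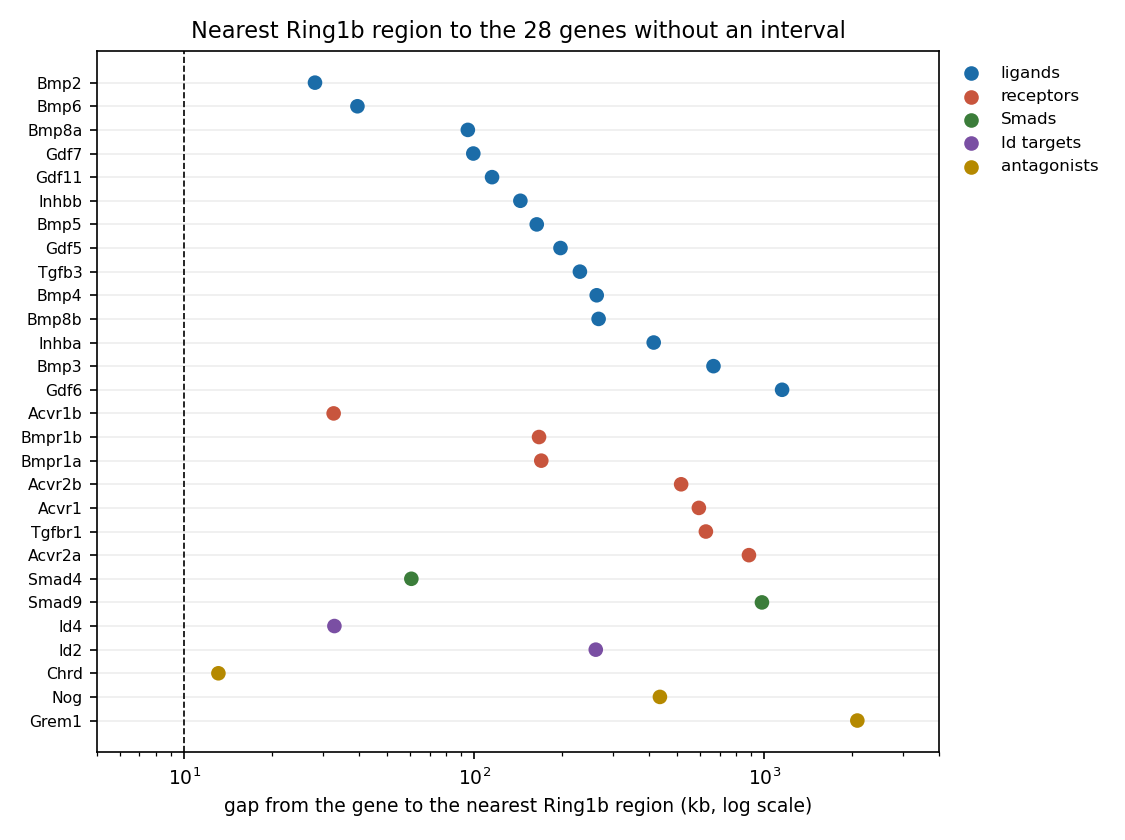
Gap in kb (log scale) from each of the 28 genes without an interval to the nearest merged Ring1b region on its chromosome, coloured by role; the dashed line marks 10 kb, the limit of the authors' gene assignment. Chrd lies closest at 13.1 kb and 20 of the 28 genes lie beyond 100 kb.

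A second list of 58 genes of the same pathway, drawn up by role with earlier results of these data known, had intervals at 13 (22.4%), against 15.8% of protein-coding genes. At the start, in the window of 2.5 kb, 8 of 58 (13.8%) were bound, against 10.4%. Intervals were assigned to 4 of 10 Smad regulators, among them Tgif2, a homeobox co-repressor of Smads, at 6, Tgif1 at 4 and Skil, which encodes the co-repressor SnoN, at 4. All 4 had an interval at the start. Antagonists and modulators had 3 of 15. Twsg1, which encodes a BMP- and chordin-binding protein, reached 10, the highest value among the 101 genes of both lists, with its summit 259 bp inside the gene. Dcn, which encodes the TGF-beta-binding proteoglycan decorin, had intervals of height 5 in both runs, 13172 and 13444 bp from the start, and Fstl1 had 1 of height 4.

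Of 8 other receptors and co-receptors, Rgmb, a BMP co-receptor, and Tdgf1, a Nodal co-receptor, each had an interval of height 5. Of 8 latency and matrix genes, Ltbp1, which holds TGF-beta latent in the matrix, had intervals at the start of heights 4 and 3. Of 17 other ligands, Inhbc at 5 and Amh and Inhbe at 4 had an interval, but none of the 17 was bound in the window of 2.5 kb around the start, and each of these 3 intervals was shared with a neighbouring gene, the Inhbe interval with Gli1 among others. In the 2 lists together, intervals at the start were assigned to 3 of 34 ligands (8.82%), Tgfb1, Tgfb2 and Bmp7, near the 10.4% of protein-coding genes. Zfyve9, singled out after its values were seen, had no interval in the deposited table although a region lay within its RefSeq gene model.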

How the data were processed

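One Ring1b ChIP sample was analysed, and no input values were used. The tools BWA and SICER and the build mm10 are named in the submitters' processing notes, without versions or settings. Per the file headers, the authors deposited intervals of each run, summits with a score (the height), merged regions, and a gene table with a signal height per gene and run. Run means in that table are over a gene's regions, called or not.

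Everything else was computed with Python 3.11.15, numpy 2.4.6, pandas 2.3.3, scipy 1.17.1 and matplotlib 3.10.9. Simulated data with planted intervals were run only through the functions for gene matching, start distance, CpG count and reverse strand. All planted intervals lay near starts, so this run does not check the shares, heights or gaps. Genes were matched by symbol and by gene identifier to a RefSeq table of GRCm38.p6. An interval counted as at the start when its edge lay within 2.5 kb of the deposited gene start. Interval starts were taken as BED positions and are printed 1-based. Of the 43 genes, 30 matched a RefSeq promoter, the first listed being used. All 43 genes are accounted for, and other pathway genes were named up to 3 per role by height. The members and lists were chosen with earlier results of these data known. Alternatives used stricter heights, each run alone, other windows, unshared intervals and the interval nearest to the start.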

Additional observations from a re-analysis of the deposited data

How the results depend on the processing

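No paired analysis was possible because there is 1 ChIP and 1 input sample. A value was taken as moved when it left the exact 95% binomial interval of the value reported, which covers counting error only. The share of the 43 genes with an interval, 34.9%, was 18.6% at heights of 5 or more (7.90% of protein-coding genes), 14.0% at 6 or more (4.25%) and 2.33% with run 1 alone (1.73%). It stayed between 32.6 and 36.6% with run 2 alone, within 2.5 or 1 kb of the start, without shared intervals and without Bmp8a and Bmp8b. The share at the start, 32.6%, was 18.6% at heights of 5 or more, 11.6% at 6 or more and 2.33% with run 1 alone, since fewer intervals are kept there. It was 30.2% with run 2 alone, without the Id3 start, and 34.9% with windows of 5 or 10 kb (11.2 and 12.6% of protein-coding genes). For a start combined with a height or with a single run, the share of protein-coding genes was not computed. Those values therefore stand without a comparison. With run 1 alone, shares by role were 0.0% for Smads, ligands, receptors and antagonists, and 25.0% for Id genes. At heights of 5 or more and of 6 or more, Smads were at 50 and 37.5%, receptors at 20 and 10%, ligands at 5.88% under both, Id genes at 25.0% under both and antagonists at 0.0% under both. The median height, 5, was 6.5 at heights of 6 or more, which that selection raises, against 7 over protein-coding genes, and 5 for the interval nearest to the start, against 4. With starts alone, and with run 2 alone, it was 5, as over protein-coding genes. Depth is not given, so a missing interval means only that none was called.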
